A study of Mus musculus with 27 samples.

Results

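Loss of Nrf2 was examined in the adult esophageal epithelium by comparing 3 arrays of Nrf2-/- mice with 3 arrays of wild-type mice, all at 8 weeks of age. These 6 arrays were chosen by genotype, age and tissue from the 27 arrays (9 groups) of a series on mouse esophageal development. The wild-type mice were C57BL/6J. The Nrf2-/- mice carried a constitutive null allele, so that every cell of the animal lacked the gene, on a background that the labels give as C57BL/6J and the methods as C57BL with no substrain, and a difference in substrain cannot be told apart from genotype. Each array hybridised the RNA of 1 biological replicate, labelled with Cy5, against a common reference pooled from mouse cell lines, labelled with Cy3. Levels are given as log2(Cy5/Cy3), that is, relative to this reference and not comparable between genes, and differences as Nrf2-/- minus wild-type on the same scale, so that -1 is a halving. For comparison, whole esophagi taken at postnatal day 7 (P7) were used, with 3 arrays for each of 4 genotypes, namely wild-type mice, mice without Nrf2 (Nrf2-/-), mice without Keap1 (Keap1-/-) and mice without either (Nrf2-/-Keap1-/-).

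Nrf2, encoded by Nfe2l2, is a transcription factor of the cap'n'collar family. The adaptor Keap1 holds it in the cytoplasm and hands it to a ubiquitin ligase, and oxidants and electrophiles that modify Keap1 let Nrf2 accumulate. In the nucleus it pairs with small Maf proteins on antioxidant response elements and drives genes for glutathione synthesis and conjugation, quinone reduction, the thioredoxin system and NADPH supply. The esophageal epithelium is a stratified squamous tissue that meets swallowed electrophiles directly.

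The 6 arrays were not processed as 1 batch. Wild-type arrays 1 and 2 lay together on 1 slide and had the scan and the older version of the extraction software of most P7 arrays, whereas wild-type array 3 and Nrf2-/- arrays 1 and 2 came from a second scan and Nrf2-/- array 3 from another one again. Nrf2-/- arrays 1 and 2 also shared 1 slide, and no slide held adult arrays of both genotypes. The SE and p-values below treat the 6 arrays as independent. With the slide as a random block, the correlation within slides was 0.488, and 25 of the 105 genes called below passed. On wild-type arrays 1 and 2, 13% and 11.8% of spots carried an outlier flag, against 0.343% to 0.523% on the other 4, and these spots were kept. Median Cy5 signal was 103 and 81.8 on those arrays and 165 to 226 on the others. Correlations between arrays over the genes tested were 0.921 to 0.983. On Nrf2-/- array 3 the reference channel itself departed by more than 2-fold from the other arrays for 331 genes (1.84%), against 34 to 64 genes (0.189% to 0.355%) on the other 5, and 0 of the genes called below were among them. The tissue carried squamous markers at high levels in both genotypes: Krt4, a keratin of the suprabasal layers, was at 5.50, 6.22 and 6.45 in wild-type and 5.99, 5.87 and 6.26 in Nrf2-/- mice.

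Of 18006 genes tested, 105 (0.583%) passed an adjusted p of 0.05. Of these, 48 (0.267%) were lower and 57 (0.317%) higher in Nrf2-/- epithelium, by at least 2-fold for 36 and 45 of them. The 2 genotypes did not overlap for any of the 105, while they did not overlap for 22.6% of all genes tested. Among the decreases were enzymes of glutathione conjugation, quinone reduction, the thioredoxin system and NADPH supply. Of the 48, 23 belonged to a list of antioxidant and detoxification genes or to a list of Nrf2 targets from the literature. These lists overlap, and the share of all tested genes that they hold together was not counted. The literature list alone held 18 of the 48 and 260 of the 18006 genes tested. Nfe2l2, the gene that these mice lack, is counted in the 48, the 23 and the 18, and its fall was set by the genotype. The increases held no member of the literature list. With the mean of the skeletal muscle genes as a covariate, 6 genes passed, namely Nfe2l2, Nqo1, Akr1b8, Kng1, Olah and Ceacam2. Of the 105, 0 changed direction. That mean was higher on each Nrf2-/- than on each wild-type array, so the covariate overlapped with genotype. Calls lost through lower precision cannot be told apart from calls lost through muscle. The split into decreases and increases depended on the scaling: it was 5 and 24 with median centring, which set the median of all genes at 0.47, 100 and 47 with scale normalization between arrays, and 25 and 11 with the processed signals. With the scan as a block 41 genes passed, of which 21 were among the 105 (14 decreased and 7 increased). The genotype difference of that fit rests on wild-type array 3 against Nrf2-/- arrays 1 and 2, the only scan with both genotypes. Leaving out both wild-type arrays of the other scan leaves 1 wild-type array. The difference was then -4.14 for Nfe2l2, -2.99 for Nqo1, -2.57 for Akr1b8 and 3.46 for Rbm45. The count for Nrf2-/- adult minus WT adult ranged from 24 without Nrf2-/- array 2 to 269 without Nrf2-/- array 1. Within the scan that held both genotypes, the median difference of wild-type array 3 and Nrf2-/- arrays 1 and 2 was -1.25 over the 48 decreased genes and 1.16 over the 57 increased genes, a direction that the choice of genes on these same arrays fixed.

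**Figure D1:**
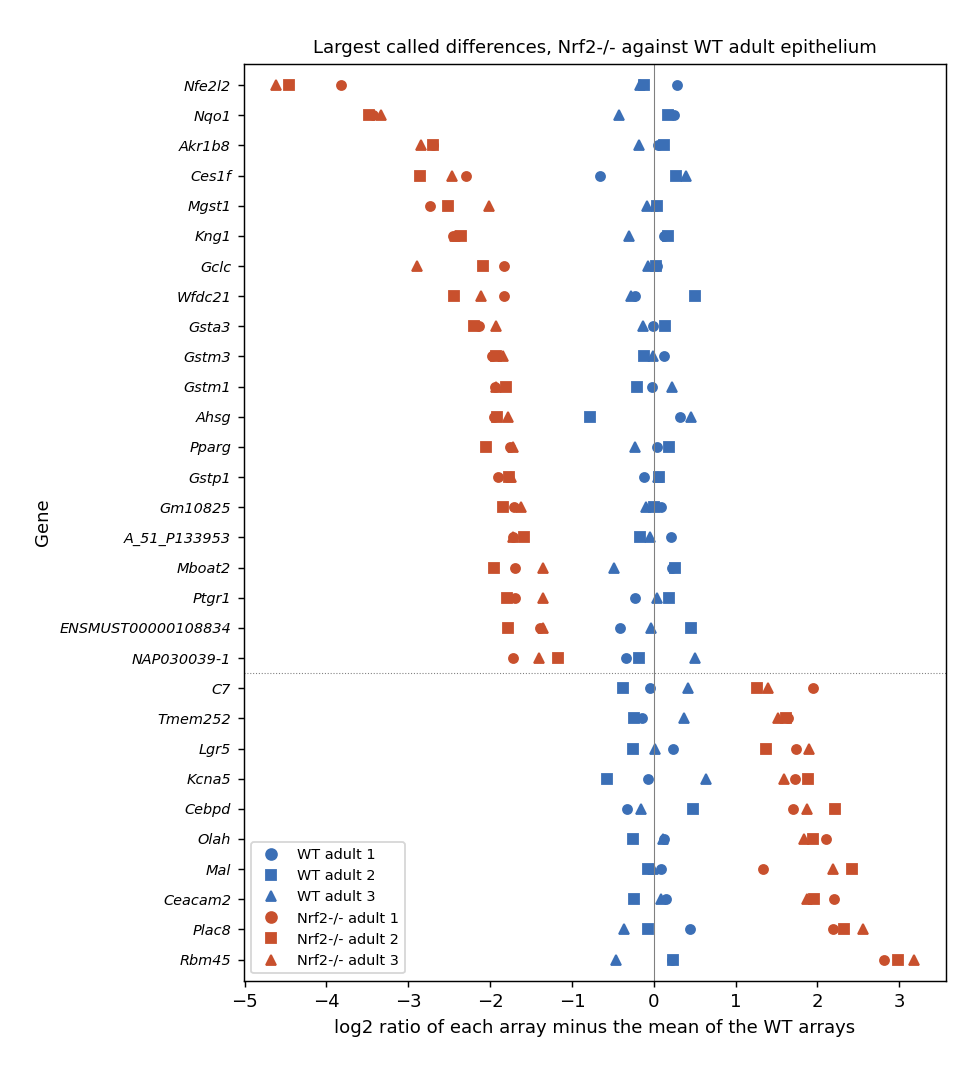
The 20 largest decreases and 10 largest increases among called genes, 1 row per gene, with each of the 6 adult arrays as a point (blue wild-type, red Nrf2-/-, marker shape the replicate) at its log2 ratio minus the mean of the wild-type arrays. The points of the 2 genotypes are apart in every row, which the choice of genes requires, and differences run from -4.30 for Nfe2l2 to 2.99 for Rbm45.

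The differences lay in the sample channel. Over the decreased genes the median difference was -1.31 in Cy5 and -0.06 in the Cy3 reference, and over the increased genes 1.20 and -0.03, and it was larger in Cy5 than in Cy3 for all 105 genes, against 13369 of the 18006 genes tested, where a choice by the ratio favours such genes. A spot with an outlier flag on at least 1 adult array contributed to 33 of the 105 genes, 28 of them decreased. When each array was left out in turn, 14 decreased and 5 increased genes passed in all 6 fits. The 14 were Nfe2l2, Nqo1, Akr1b8, Mgst1, Gsta3, Gstm1, Gstm3, Pparg, Gstp1, Gm10825, A_51_P133953, Ptgr1, Esd and Olfr1153, and the 5 were Vit, Depp1, Ceacam2, Plac8 and Rbm45. Of the remaining genes, 30 decreased and 47 increased ones passed in 3 fits or fewer.

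The targeted gene was checked first. Nfe2l2 stood at 1.27, 0.86 and 0.81 on the wild-type arrays and at -2.85, -3.48 and -3.64 on the Nrf2-/- arrays, as the mean of 3 probes. The difference was -4.30 ± 0.23 (SE, n = 3 and 3), adjusted p = 0.000333, a 19.7-fold decrease. The probes disagreed, however. Their first 30 bases are shown because the position of each probe decides what it could detect (mm9, chromosome 2, minus strand, coordinates of the file).
A_51_P411271, chr2:75513771-75513830: ctcaagttaatttcttaggcaccatttggg
A_52_P396436, chr2:75513917-75513976: gtactgctaaaacttcctactgtgatgtga
A_52_P523835, chr2:75529947-75530006: tagtaatcctttttataggcccaaattgca
The first probe fell from 2.04, 1.67 and 1.5 to -5.03, -6.35 and -6.26. The second probe went from 2.31, 1.88 and 1.71 to -2.86, -3.35 and -3.62. The third probe, 16176 bases from the first, read -0.55, -0.98 and -0.77 in wild-type and -0.65, -0.76 and -1.05 in Nrf2-/- mice, a difference of -0.05. This probe is annotated to another transcript record than the first 2. It was dim, with Cy5 signals of 129, 81.0 and 234 on the wild-type arrays, against 28733, 17364 and 50456 for the first probe. The 19.7-fold decrease averages all 3 probes. Which part of the gene the allele lacks was not given in the sources used here.

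**Figure D2:**
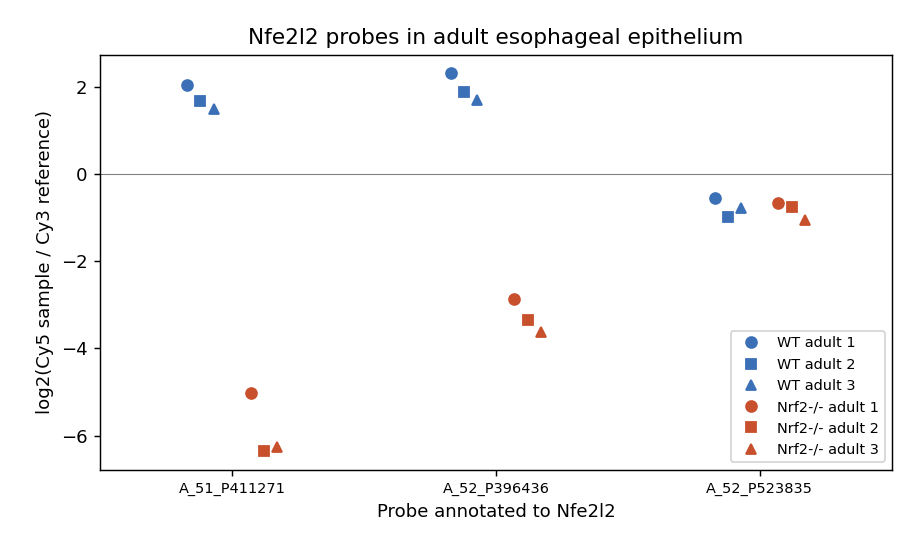
Level of each Nfe2l2 probe (horizontal axis) as log2(Cy5/Cy3) (vertical axis) on the 3 wild-type (blue) and 3 Nrf2-/- (red) adult arrays. The genotypes differed by -7.61 and -5.25 for the first 2 probes, and overlapped for the third.

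Among the 12 tested genes for Nrf2 and its partners, Nfe2l2 was the only one called. Keap1, the repressor of Nrf2, was at 0.66, 0.94 and 1.43 in wild-type and 0.74, 0.72 and -0.62 in Nrf2-/- mice (difference -0.73 ± 0.37, adjusted p = 0.346). The low value came from Nrf2-/- array 3, where the reference channel for Keap1 read 13.54 on the log2 scale against 11.91 to 12.60 on the other arrays, while its Cy5 channel read 12.93 against 12.65 to 13.54. Maff, a small Maf, differed by 0.44 (adjusted p = 0.284).

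Glutathione synthesis is rate-limited by glutamate-cysteine ligase. Gclc, its catalytic subunit, was at 1.05, 1.04 and 0.95 in wild-type and -0.81, -1.08 and -1.88 in Nrf2-/- epithelium. It fell by 2.27 ± 0.25 (4.83-fold, adjusted p = 0.00899), and the genotypes were well apart, although the reference channel was higher on Nrf2-/- array 3 (12.18 against 11.18 to 11.44). Gclc was the 1 call among 12 tested genes of this list (8.33%, against 0.267% of all genes called lower). The median difference of the list was -0.48 against 0.03 over all genes. The modifier subunit Gclm (-0.53, adjusted p = 0.213), glutathione synthetase Gss (-0.67, adjusted p = 0.119), glutathione reductase Gsr (-0.82, adjusted p = 0.0823) and the cystine carrier Slc7a11 (-0.45, adjusted p = 0.411) did not pass.

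Glutathione S-transferases, which join glutathione to electrophiles, gave 6 decreases and 0 increases among 23 tested genes (26.1%, against 0.267% of all genes). Mgst1, the microsomal form, was at 1.22, 1.23 and 1.11 in wild-type and -1.55, -1.33 and -0.83 in Nrf2-/- mice, a difference of -2.42 ± 0.19 (adjusted p = 0.00124). Gsta3 went from 0.77, 0.92 and 0.65 to -1.36, -1.42 and -1.16, a difference of -2.09 ± 0.14 (adjusted p = 0.000687). In both genes the gap between the genotypes was wider than the spread within either. Gstm3 stood at 2.59, 2.35 and 2.45 against 0.49, 0.54 and 0.62 (-1.91 ± 0.13, adjusted p = 0.000687). Gstm1 stood at 2.88, 2.70 and 3.11 against 0.95, 1.09 and 0.96 (-1.89 ± 0.14, adjusted p = 0.00124). Gstp1 stood at 0.89, 1.07 and 1.06 against -0.89, -0.76 and -0.73 (-1.80 ± 0.13, adjusted p = 0.000867). Members of the Gstm and Gstp families are close in sequence, so cross-hybridisation between them cannot be told apart from shared change. Gstm6 fell by 1.00 (adjusted p = 0.0299), but was higher by 0.55 when each spot's own local background was used. Gsta1 (-0.74, adjusted p = 0.0911), Gsta2 (-0.69, adjusted p = 0.159), Gsta4 (-0.62, adjusted p = 0.116) and Gstm2 (-0.53, adjusted p = 0.126) did not pass.

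Quinone and carbonyl reductases gave 4 decreases among 19 tested genes (21.1%, against 0.267% of all genes). Nqo1, the quinone reductase widely used as a readout of Nrf2, was at 2.85, 2.78 and 2.18 in wild-type and -0.83, -0.88 and -0.72 in Nrf2-/- epithelium. It fell by 3.41 ± 0.19 (adjusted p = 0.000333), the largest decrease after Nfe2l2. Akr1b8, an aldo-keto reductase, was at -0.09, -0.02 and -0.33 against -2.85, -2.85 and -2.99 (-2.75 ± 0.13, adjusted p = 0.000333). Both genes also passed in 25 of 26 other settings of the analysis. In the remaining setting, which left out outlier-flagged spots, neither could be tested, each having 1 probe with 2 flagged values on the adult arrays. A gene without a test in a setting counts as not passed there. The same tally for other called genes of these lists was Nfe2l2 in 25, Gstm1 in 24, Mgst1 in 23, Gsta3, Gstm3 and Gstp1 in 22, Ptgr1 in 21 and Gclc in 20. It was Ces1f in 16, Ces1g in 15, Abcc3 in 14, Txn1 in 13 and Gstm6 and Srxn1 in 12. The lowest were G6pdx and Blvrb in 10, Cbr3 and Sult1a1 in 9, Entpd5 in 8, Tkt in 7, Ftl2-ps in 5 and Adh7 in 3. Ptgr1, which reduces unsaturated aldehydes and prostaglandins, went from 4.41, 4.82 and 4.67 to 2.94, 2.84 and 3.28 (-1.62 ± 0.17, adjusted p = 0.00763). Cbr3, a carbonyl reductase, fell by 1.17 (adjusted p = 0.0323). Nqo2 (-0.23), Akr1a1 (0.21), Akr1b3 (-0.20) and Akr1b7 (-1.01, adjusted p = 0.0871) did not pass.

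Of 14 tested genes of conjugation and drug oxidation, 2 fell (14.3%) and 1 rose, against 0.267% and 0.317% of all genes. Ces1f, a carboxylesterase, was at 4.29, 5.22 and 5.34 in wild-type and 2.66, 2.09 and 2.48 in Nrf2-/- mice, a difference of -2.54 ± 0.28 (adjusted p = 0.00899). Its relative Ces1g fell by 1.27 (adjusted p = 0.0225), but was higher by 0.48 with each spot's own local background, and the Ces1 genes are close in sequence. The sulfotransferase Sult1a1 rose by 1.33, from 1.90, 1.91 and 2.45 to 3.17, 3.47 and 3.61 (adjusted p = 0.0312). The export pump Abcc3, which carries conjugates out of the cell, was the 1 decrease among 6 tested Abcc genes (16.7%, against 0.267% of all genes). It went from 1.80, 2.08 and 1.96 to 0.83, 0.57 and 0.52 (-1.30 ± 0.14, adjusted p = 0.00899).

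In the thioredoxin and peroxidase list, 2 of 22 tested genes fell (9.09%, against 0.267% of all genes). For the lists below, the shares called lower were 22.2% for NADPH supply, 10% for heme and iron and 3.85% for the dehydrogenases. Txn1, thioredoxin itself, was at 0.52, 0.64 and 0.52 against -0.58, -0.50 and -1.03 (-1.26 ± 0.16, adjusted p = 0.0178), and Srxn1, which restores oxidised peroxiredoxins, fell by 0.90 (adjusted p = 0.0312). Txnrd1, the reductase of thioredoxin, differed by -0.62 (adjusted p = 0.183). For NADPH supply, 2 of 9 genes fell: G6pdx, the entry enzyme of the pentose phosphate pathway, by 1.05 (adjusted p = 0.0422) and the transketolase Tkt by 0.85 (adjusted p = 0.0479). Pgd (-0.28), Taldo1 (-0.31) and Me1 (-0.05) did not pass. Among 10 heme and iron genes Blvrb, a biliverdin reductase, fell by 0.92 (adjusted p = 0.0312), and Hmox1, heme oxygenase, was at 1.91, 1.30 and 0.86 against 0.96, 0.80 and 0.51 (-0.60 ± 0.26, adjusted p = 0.284), with overlapping genotypes. Adh7 was the 1 call among 26 aldehyde and alcohol dehydrogenases (-0.90, adjusted p = 0.0494). None of 4 metallothioneins passed, the nearest being Mt2 (-1.22 ± 0.21, adjusted p = 0.0562).

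**Figure D3:**
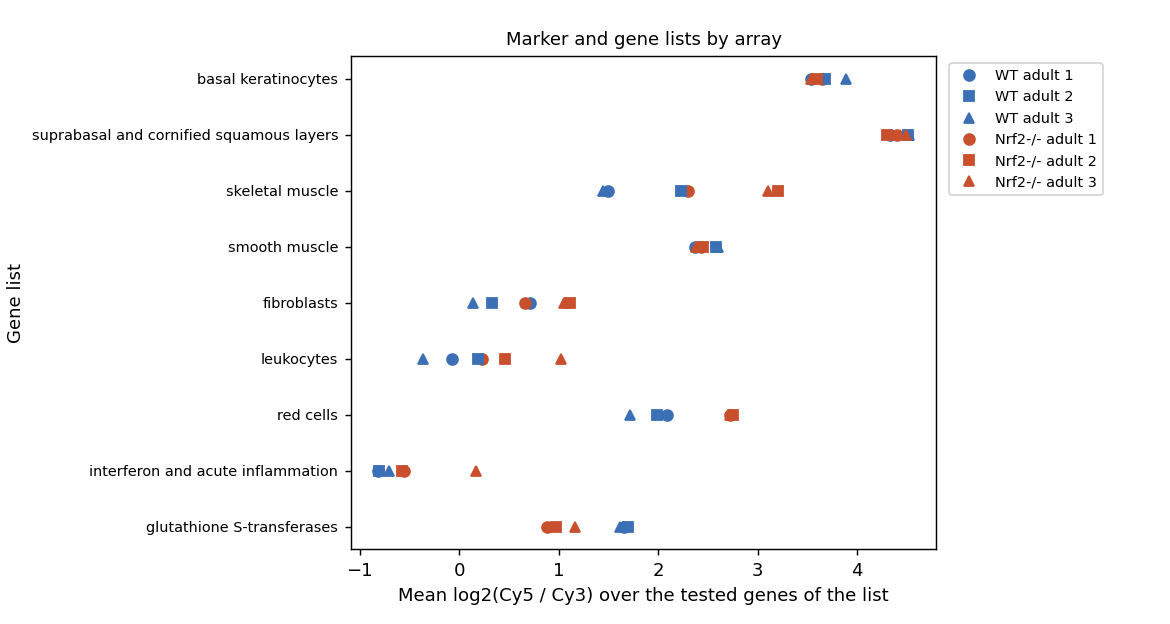
Mean level of 9 gene lists (rows) on each of the 6 adult arrays, as log2(Cy5/Cy3), with blue points for wild-type, red points for Nrf2-/- and marker shape for the replicate. The glutathione S-transferase list averaged 1.66, 1.70 and 1.62 on the wild-type and 0.88, 0.97 and 1.16 on the Nrf2-/- arrays, and the skeletal muscle list 1.49, 2.23 and 1.45 against 2.30, 3.21 and 3.11.

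The wider list of Nrf2 targets from the literature behaved differently as a whole. Of 260 tested genes, 18 (6.92%) fell and 0 rose, but the median difference was -0.00, with 131 genes lower and 129 higher. The 18 include Nfe2l2 itself, whose fall was set by the genotype. Beyond Nfe2l2 and the other genes above, they included Entpd5, a nucleotidase of the endoplasmic reticulum (-1.01, adjusted p = 0.0336). They also included Ftl2-ps, a ferritin light chain pseudogene whose signal cannot be told apart from that of its parent gene (-0.81, adjusted p = 0.048).

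Several of the largest decreases lay outside the antioxidant and detoxification lists. Pparg, a nuclear receptor of lipid metabolism, was at 0.74, 0.88 and 0.46 in wild-type and -1.06, -1.35 and -1.03 in Nrf2-/- mice (-1.84 ± 0.16, adjusted p = 0.00234). It was the 1 called decrease among 16 Ppar and fatty acid genes (6.25%, against 0.267% of all genes). In this list Pdk4, a kinase that inhibits pyruvate dehydrogenase, rose by 1.03 (adjusted p = 0.0178), and Ppara (-0.21) and Ppard (0.15) did not pass. Before adjustment, 7 of the 16 were higher and 2 lower at p of 0.05 or below in limma (against 10.4% and 6.63% of all genes). The median difference of the list was 0.28. Kng1, kininogen, was not well above background on any Nrf2-/- array and was at least 3.72-fold lower there, a limit taken from the Cy5 channel alone and open to dye bias, since no dyes were swapped (adjusted p = 0.000687). Wfdc21 went from 5.73, 6.46 and 5.68 to 4.13, 3.51 and 3.84 (-2.13 ± 0.24, adjusted p = 0.0107), and its difference was 0.15 with each spot's own local background. Ahsg, a plasma glycoprotein, fell by 1.88 (adjusted p = 0.0422), and the acyltransferase Mboat2 by 1.67 (adjusted p = 0.029). The remaining large decreases were Gm10825 (-1.72), the unnamed probe A_51_P133953 (-1.68) and the transcripts listed as ENSMUST00000108834 (-1.51) and NAP030039-1 (-1.43, and 0.63 with each spot's own local background).

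The largest increase was that of Rbm45, an RNA-binding protein, from -1.56, -1.55 and -2.25 to 1.03, 1.20 and 1.39 (2.99 ± 0.21, 7.96-fold, adjusted p = 0.000867). Rbm45 lies on the chromosome of Nfe2l2 with 13 annotated genes between them. Of 200 genes annotated within 5 Mb of Nfe2l2, 54 were tested, and Rbm45 was the only one called besides Nfe2l2 itself. Before adjustment, 16 of the 54 had a p of 0.05 or lower in limma, against 3064 of the 18006 genes tested. Plac8 rose from 0.14, -0.37 and -0.66 to 1.90, 2.03 and 2.26 (2.36 ± 0.21, adjusted p = 0.00311). Ceacam2, a cell adhesion molecule, rose from 0.67, 0.29 and 0.62 to 2.74, 2.49 and 2.40 (2.01 ± 0.16, adjusted p = 0.00124). The related Ceacam1 also rose (1.02, adjusted p = 0.0111), its 3 probes spread over 1.64, and signal shared between these near-identical genes cannot be told apart. Olah, a thioesterase of fatty acid synthesis, was not well above background on any wild-type array, and its ratios were 0.49, 0.11 and 0.48 in wild-type and 2.46, 2.30 and 2.20 in Nrf2-/- mice (1.96 ± 0.15, adjusted p = 0.00124). The limit from the Cy5 channel alone, 3.92-fold, was above the 3.90-fold of the ratios, so no lower limit is given for it. Mal, a membrane protein of lipid rafts, rose by 1.98 ± 0.26 (adjusted p = 0.0191) with a spread of 1.34, 2.44 and 2.20 among the Nrf2-/- arrays. Cebpd, a transcription factor of the acute phase, went from -2.81, -2.00 and -2.65 to -0.79, -0.27 and -0.61 (1.93 ± 0.23, adjusted p = 0.0137). Lgr5, a receptor for R-spondins known from epithelial stem cells, went from 0.86, 0.38 and 0.64 to 2.36, 2.00 and 2.53 (1.67 ± 0.18, adjusted p = 0.00899), and was well above background on 2 of 3 wild-type arrays. The potassium channel Kcna5 rose by 1.73 (adjusted p = 0.0423), Tmem252 by 1.59 (adjusted p = 0.00899) and the complement component C7 by 1.54 (adjusted p = 0.0422).

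Markers of other cell types were examined beside these differences. Skeletal muscle markers gave 0 calls among 19 tested genes, but 15 were higher with p at 0.05 or below before adjustment (against 10.4% of all genes), and their median difference was 1.23. Acta1, skeletal actin, was at 1.23, 2.22 and 0.97 in wild-type and 2.33, 3.71 and 3.57 in Nrf2-/- mice (1.73, adjusted p = 0.118), and Ckm, muscle creatine kinase, at 1.83, 3.30 and 1.18 against 3.03, 4.25 and 4.39 (1.79, adjusted p = 0.177). All 20 markers on the array were above background on at least 1 adult array. The list mean was higher on each Nrf2-/- than on each wild-type array, by little between Nrf2-/- array 1 (2.30) and wild-type array 2 (2.23). Fewer cells of a type and less RNA per cell cannot be told apart in these samples, and the part of muscle in the increases beyond the covariate count above was not tested. Of all genes tested, 0.317% were called higher, to be set beside the counts of calls that follow. Among 10 fibroblast markers Dpt, a matrix protein, was the 1 call, from 2.42, 2.00 and 2.01 to 3.19, 3.79 and 3.98 (1.51 ± 0.22, adjusted p = 0.0323). Among 17 leukocyte markers the 1 call was Cpa3, a mast cell protease, from 1.23, 1.65 and 1.18 to 2.45, 2.69 and 2.99 (1.35 ± 0.19, adjusted p = 0.026). Mean levels of the leukocyte list were -0.07, 0.19 and -0.36 on the wild-type and 0.22, 0.46 and 1.03 on the Nrf2-/- arrays, which did not overlap. Among 4 red cell genes Hba-a1, an alpha globin, rose from 1.85, 2.06 and 1.61 to 2.76, 2.82 and 2.92 (0.99 ± 0.15, adjusted p = 0.0336), and its near-identical neighbour Hba-a2 differed by 0.89 (adjusted p = 0.107). Higher with p at 0.05 or below before adjustment were 4 of 10 fibroblast, 5 of 17 leukocyte and 4 of 4 red cell genes (against 10.4% of all genes). In these lists 0 genes were lower at that level, and the median differences were 0.45, 0.43 and 0.80.

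The lists of basal and of suprabasal and cornified squamous markers gave no calls, which does not cover squamous genes outside these lists. None of 10 basal keratinocyte markers passed in limma, and before adjustment 1 was lower and 0 higher at p of 0.05 or below (against 6.63% and 10.4% of all genes): Krt5 differed by -0.00, Krt14 by -0.16, Krt15 by 0.13 and Trp63 by 0.03. None of 32 suprabasal and cornified markers passed either, with a median of -0.10 and a range of -0.66 to 0.98, and before adjustment 4 were lower and 3 higher at that level. The lists of smooth muscle, endothelium, adipocyte, neuron and gland markers gave 0 calls in limma. So did the lists of proliferation, early response, interferon, PI3K and Akt and sex-linked genes. Oasl1, which the interferon list did not hold, was called higher (1.05, adjusted p = 0.0497). Before adjustment, interferon and inflammation (6 of 19) and early response (3 of 14) genes at p of 0.05 or below were all higher in Nrf2-/- mice, and among 10 smooth muscle genes 2 were lower and 1 higher. Of 17 clock genes Per1 alone was called, where 0.317% of all genes were called higher. It went from -1.10, -0.90 and -1.60 to 0.06, -0.11 and -0.12 (1.14 ± 0.19, adjusted p = 0.0472). The hour of tissue collection was not given in the sources used here.

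The antioxidant response element was searched for as TGACNNNGC on both strands of windows from 250 bases before to 50 bases after the start of each gene (RefSeq, GRCm38.p6). It was found for 8 of 35 decreased genes with a window (22.9%), 6 of 42 increased genes (14.3%) and 16.5% of all tested genes with one. Matches lay upstream of the start in 7 decreased genes (also Nfe2l2, Ahsg and 2210408F21Rik), and those of the 4 whose products act in glutathione conjugation, NADPH supply or as a nuclear receptor are shown, with the match in capitals.
Gsta3, chr1:21240451-21240485, plus strand: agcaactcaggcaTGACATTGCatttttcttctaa
Mgst1, chr6:138140458-138140492, minus strand: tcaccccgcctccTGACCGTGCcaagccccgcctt
G6pdx, chrX:74428916-74428950, plus strand: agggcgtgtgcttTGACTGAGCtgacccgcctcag
Pparg, chr6:115362103-115362137, minus strand: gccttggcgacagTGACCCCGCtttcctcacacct
A match is a description of these letters and not a measured binding site.

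At P7 few genes were called with the same null allele, and a gene not called there was not shown to be unchanged. Of 19026 genes tested there, 2 (0.0105%) were lower in Nrf2-/- than in wild-type esophagi, Nfe2l2 (-3.63) and Upk3a (-1.45), and 1 (0.00526%) was higher, Rbm45 (2.64, adjusted p = 2.8e-07). The 48 genes decreased in adults, Nfe2l2 among them, had a median difference of -0.17 at P7. Of the 48, 35 were lower there, against 9616 of all 19026 genes, and Nfe2l2 alone was called. Akr1b8 was at -2.07, -2.39 and -2.91 in wild-type and -2.58, -2.60 and -2.28 in Nrf2-/- esophagi at P7. Its P7 levels in both genotypes were thus close to those of adult Nrf2-/- epithelium. Adults were sampled as epithelium and P7 mice as whole esophagus, so age and tissue cannot be told apart.

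The difference between the ages was tested directly on 12 arrays, and 19 of 19350 genes (0.0982%) passed. Of these, 6 had a more negative difference in adults, among them Ces1f (-2.89, adjusted p = 0.0114), Akr1b8 (-2.72, adjusted p = 0.0024) and Gstp1 (-1.73, adjusted p = 0.0024). The other 13 had a more positive one, led by Plac8 (2.91, adjusted p = 0.0039), Cap1 (2.13, adjusted p = 0.0431) and Olah (1.99, adjusted p = 0.0024). For Nqo1 the difference between the ages was -1.59 (adjusted p = 0.382), and for Gclc -2.36 (adjusted p = 0.207).

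In Keap1-/- esophagi at P7, where the repressor of Nrf2 is missing, 15.8% of tested genes were called higher and 18.7% lower than in wild-type. Of the 48 genes decreased in adult Nrf2-/- mice, 34 were called higher and 5 lower there, with a median difference of 2.42. Gclc was at 0.10, 0.34 and -0.76 in wild-type, 5.83, 5.84 and 6.13 in Keap1-/- and -0.32, -0.46 and -0.65 in Nrf2-/-Keap1-/- esophagi (Keap1-/- minus wild-type 6.04, adjusted p = 1.99e-06). Akr1b8 was at 2.82, 3.30 and 3.16 in Keap1-/- and -2.20, -2.34 and -2.55 in Nrf2-/-Keap1-/- esophagi (5.55, adjusted p = 1.9e-08). In both genes the double knockout was near the wild-type level. Nqo1 was at 0.45, -1.06 and -1.96 in wild-type, 3.95, 3.99 and 4.18 in Keap1-/- and -2.65, -1.67 and -2.56 in Nrf2-/-Keap1-/- esophagi (4.89, adjusted p = 3.17e-05), with a wide spread in wild-type mice. Gstm1 rose by 5.97 (adjusted p = 1.93e-09), Srxn1 by 4.37 (adjusted p = 1.43e-08), Gstp1 by 3.43 (adjusted p = 2.26e-08) and Pparg by 1.67 (adjusted p = 0.00124) in Keap1-/- esophagi. Kng1, by contrast, was at 0.97, 3.85 and 2.18 in wild-type and 0.10, 0.73 and 0.62 in Keap1-/- esophagi (-1.85, adjusted p = 0.21). Of the 57 genes increased in adults, 52 were tested at P7, of which 9 were called higher and 20 lower in Keap1-/- esophagi, with a median of -0.37. Plac8 was at 4.32, 5.04 and 4.62 in wild-type and -1.64, -2.30 and -2.57 in Keap1-/- esophagi (-6.83, adjusted p = 1.35e-08). Rbm45 differed by -0.16 in Keap1-/- esophagi and was at 0.95, 1.04 and 1.02 in Nrf2-/-Keap1-/- esophagi against -1.72, -1.66 and -1.57 in wild-type. The Keap1-/- arrays were scanned apart from all others, so that genotype and scan cannot be told apart there, and both P7 comparisons share the same wild-type arrays.

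**Figure D4:**
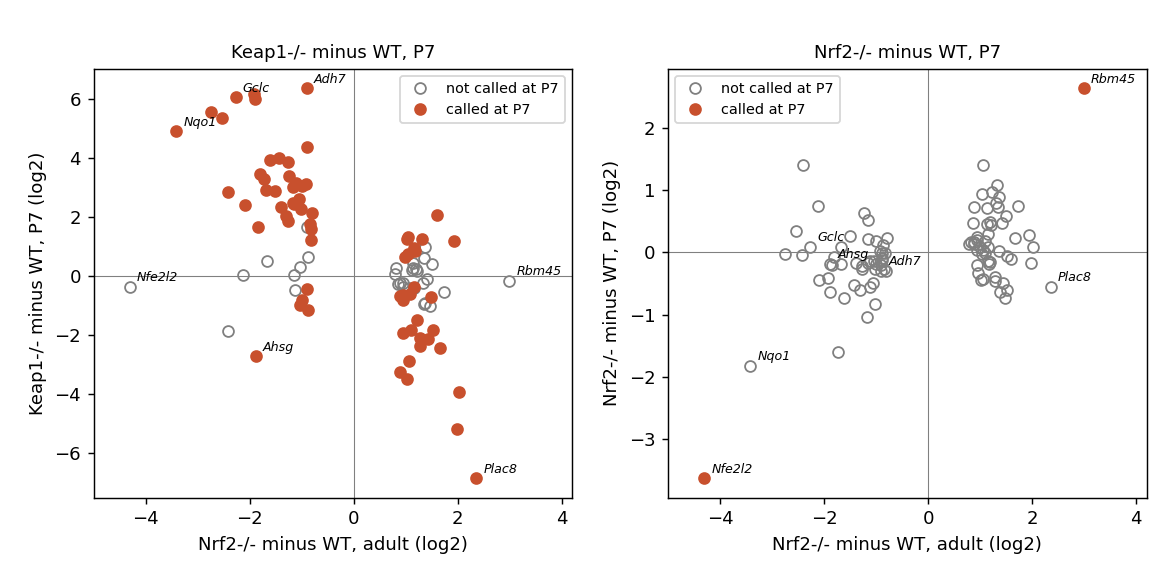
Difference Nrf2-/- minus wild-type in adults (horizontal axes, log2) for the genes called in adults and tested at P7, against the P7 difference of Keap1-/- (left) and Nrf2-/- (right) from wild-type (vertical axes, log2), with filled points for genes called at P7. On the left the decreased genes have a median of 2.42 and the increased genes of -0.37, and on the right Nfe2l2 and Rbm45 are the only filled points, with medians of -0.17 and 0.14.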

How the data were processed

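The authors hybridised Agilent 2-colour arrays, and the deposited files give scanner intensity for both channels per spot, extracted with Agilent Feature Extraction (9.1 per the labels; 10.5.1.1 and 10.7.3.1 per the file headers). The deposited series matrix holds log10 ratios, which matched the files' own within 0.005 and served as an alternative. From the intensity values, background was corrected (normexp, offset 50), a spot whose local background exceeded 5 times its array's median was given that median and left out of the tests, and log2(Cy5/Cy3) was normalised within arrays by loess. Outlier-flagged spots were kept. Probes whose Cy5 signal was flagged as well above background on 3 or more arrays were averaged per gene. Genotypes were compared in limma 3.58.1 (R 4.3.3; lmFit, eBayes) with Benjamini-Hochberg adjustment over all genes tested, called at 0.05, and the procedure was tested on simulated data. The labels call the samples biological replicates, and their number limits the precision. Named were Nfe2l2 and Keap1, the 20 largest decreases and 10 largest increases, called list members and up to 4 further members per list. The members and lists were chosen with earlier results of these data known. The genes that passed whichever array was left out were named after their values were seen. Most of the alternatives tried are in the closing section.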

Additional observations from a re-analysis of the deposited data

Results flagged for a closer look

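The Nrf2 effect differed between adult epithelium and P7 whole esophagus for 19 genes by limma's test of the difference itself (adult minus P7, log2). It was more negative in adults for Ces1f (-2.89), Akr1b8 (-2.72), Olfr1153 (-1.88), A_51_P133953 (-1.77), Gstp1 (-1.73) and Esd (-1.22). It was more positive in adults for 3110021A11Rik (0.95), C030027H14Rik (1.06), Parm1 (1.13), Banp (1.33), A_52_P404979 (1.44), Ceacam1 (1.46), Tmem252 (1.70), Pmaip1 (1.74), Ceacam2 (1.92), Sowahb (1.92), Olah (1.99), Cap1 (2.13) and Plac8 (2.91). Of the 19 genes, 8 passed with the processed signals and 8 with median centring. With the processed signals Tmem252 was at 0.42 (adjusted p = 0.61), Olah at 4.39, Ceacam2 at 1.40 (adjusted p = 0.304), Cap1 at 2.06 (adjusted p = 0.0804) and Ces1f at -3.75 (adjusted p = 0.24). With median centring Gstp1 was at -1.1, Esd at -0.68, Olah at 1.26, Ceacam2 at 1.21, Olfr1153 at -1.17 and Tmem252 at 1.1, and none of these 6 passed, nor did Ces1f and A_51_P133953. Age, tissue and scan cannot be told apart in this comparison.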

How the results depend on the processing

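For Nrf2-/- adult minus WT adult, the genes that passed, with those among the 105 in brackets, were 36 (33) with the processed signals, 35 (32) with the deposited ratios, 29 (21) with median centring, 1735 (80) with each spot's own local background, 41 (21) with the scan as a block, 25 (25) with the slide as a random block, 499 (72) with all 27 arrays in the fit and 6 (6) with the muscle list as a covariate. Alternatives chosen after seeing the data gave 38 (24) with the software version as a block and 16 (7) without both wild-type arrays of the other scan. Leaving out 1 array gave 24 to 269 (44 without wild-type array 1, 27 without 2 and 186 without 3, and 269, 24 and 37 without Nrf2-/- arrays 1, 2 and 3), and 19 genes passed in all 6 of these fits. The replicate block gave 26 (22), and samples of the same number did not deviate together (r = 0.00436, 0.0581 and -0.144), so the numbers do not pair them. Without outlier-flagged spots 92 of the 105 could be tested and 70 passed (25 decreased and 45 increased). SAM, a permutation test, called 89 genes, 81 of them among the 105. Of the 105, 88 passed without background subtraction, 69 with scale normalization and 81 without the filter on dim probes. With the brightest probe of a gene 100 passed, with a trend and robust fit 77, and with Cy5 alone, chosen after seeing the data, 63. The direction turned for Acsm1 (-0.43) and Dlx3 (-0.13) with the processed signals and with the deposited ratios, and for Ces1g (0.48), Gstm6 (0.55), NAP030039-1 (0.63), Rhpn1 (0.19), Tmem45a2 (0.61) and Wfdc21 (0.15) with each spot's own local background. The age difference fell from 19 to 9 genes without outlier-flagged spots and ranged from 4 (without Nrf2-/- adult array 2) to 49 (without wild-type adult array 1), and the count of adult-decreased genes called in Nrf2-/- mice at P7 went to 0 without outlier-flagged spots. The causes were not tested.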
